A study of Arabidopsis thaliana with 12 samples.

Results

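DFR, UF3GT and AT4G14090 are 3 genes of the late part of anthocyanin synthesis, and their transcripts were followed in axillary buds of Arabidopsis thaliana rosettes at both bud positions and under both light conditions of the study. The genes were chosen by locus (AT5G42800, AT5G54060 and AT4G14090), and each was read by its 1 probe set on the Affymetrix ATH1 array that the annotation assigns to a single gene. They are 3 of 13513 probe sets with 1 gene, on an array of 22746 probe sets without controls. All 3 passed the filter on dim probe sets and stood among the 14295 probe sets tested.

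Bud n is the top rosette bud and bud n-2 sits further down; plants received red and far-red light at a ratio (R:FR) that was either high or low. Shade from neighbouring leaves lowers this ratio. Each combination of bud and ratio had 3 arrays, which makes 4 groups. All plants were of ecotype Col-8 with genetic background Col-0, at developmental stage 6.00. They grew one to a tube in a split chamber, with 18 h of light a day (185 micromoles on each square metre in a second) at 24 °C, nights at 18 °C and a cold treatment of 3 days. By the labels the groups differed in bud position and R:FR only. The labels do not say how many buds went into a sample or whether replicates came from separate plantings, so p-values measure only the spread between these arrays, and precision is limited by the number of arrays. Whole buds were measured, in which fewer cells that express a gene and less RNA per cell cannot be told apart.

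Anthocyanins are red to purple flavonoid pigments. Early enzymes build dihydroflavonols, which the plant can turn into flavonols or, through DFR and anthocyanidin synthase, into anthocyanidins. Glycosyltransferases and acyltransferases then attach sugars and acids, which makes the pigment soluble and stable in the vacuole. In Arabidopsis the late genes are switched on together by complexes of MYB, bHLH and WD40 proteins, and anthocyanins are known to accumulate in vegetative tissue under strong light, cold, sugar and nutrient stress. Shade is known to lower them in seedlings.

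Signals are the deposited intensities, which have no unit and were scaled by the authors to the same trimmed mean on every array. No detection calls were used here. A value below the 40th percentile of its own array is called dim. This limit stands in for a detection limit, was chosen with earlier results of these data known, and decides every dim call and bound. It averaged 18.6 and 18.3 in bud n at high and low R:FR, and 22.3 and 22.6 in bud n-2. The intensity of one gene is not set against that of another, because probe sets differ in brightness.

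The first principal component of the tested probe sets held 71.3% of the variance and separated the bud positions. Arrays of bud n lay at -46.0 to -33.2 on it and those of bud n-2 at 25.8 to 50.3. On the third component (4.40%), replicate 1 of the high R:FR group of bud n lay at 26.9 and the other arrays at -10.9 to 5.45. On the second (5.89%), replicate 2 of the high R:FR group of bud n-2 lay at 26.9 and the others at -15.9 to 11.7. Correlations between arrays of a group were 0.977 to 0.988. Of 15 shoot meristem and bud markers, 4 had a named probe set. YAB3 and PHV, which pattern the faces of young leaves, were above the limit on all 12 arrays, at 115 to 222 and 153 to 254, while the stem cell peptide gene CLV3 and the axillary meristem gene LAS were dim on all 12. Of 10 flower markers only the anther gene AMS was named, at 46.2 to 153. No leaf, root, epidermis or secondary wall marker of the 14 fixed had a named probe set. The log2 ratio of 3-prime to 5-prime actin signal, a sign of RNA quality, was 4.27 to 4.35 in bud n at high R:FR, 4.50 to 4.79 in bud n at low R:FR and 4.03 to 4.32 over both groups of bud n-2. Its part in the results was not tested.

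DFR (dihydroflavonol 4-reductase, the first committed step towards anthocyanidins) had intensities of 113, 66.0 and 51.6 in replicates 1, 2 and 3 of bud n at high R:FR, and of 37.8, 62.5 and 36.2 at low R:FR. In bud n-2 it read 13.3, 10.8 and 12.0 at high R:FR and 7.78, 9.41 and 7.92 at low R:FR. Every bud n array lay above every bud n-2 array, and the lowest of bud n was 2.73 times the highest of bud n-2. For this gene and those below, the share of all tested probe sets separated over 6 against 6 arrays was not counted. With 3 against 3 arrays, 18.9% were lower in bud n-2 without overlap at high R:FR and 27.5% at low R:FR. The light groups overlapped in bud n, where replicate 2 at low R:FR reached the range of high R:FR. They did not overlap in bud n-2, but all 6 of those values were dim.

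UF3GT (with the synonym UGT79B1 in the reference table, a glycosyltransferase that adds xylose to the sugar of anthocyanins) read 80.2, 81.7 and 56.0 in bud n at high R:FR and 57.9, 66.7 and 43.4 at low R:FR. In bud n-2 the intensities were 12.5, 14.1 and 13.4 at high R:FR and 7.26, 12.8 and 9.51 at low R:FR. The positions did not overlap, with the lowest bud n array at 3.08 times the highest of bud n-2. The light groups overlapped at both positions.

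AT4G14090, which encodes the enzyme that adds a second glucose to anthocyanins, read 89.6, 73.1 and 69.8 in bud n at high R:FR and 65.5, 87.9 and 48.1 at low R:FR. In bud n-2 it read 12.8, 11.0 and 14.0 at high R:FR and 4.21, 4.08 and 1.199 at low R:FR. The lowest bud n array was 3.43 times the highest of bud n-2. In bud n the light groups overlapped, and in bud n-2 they did not, at values that were all dim.

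**Figure D1:**
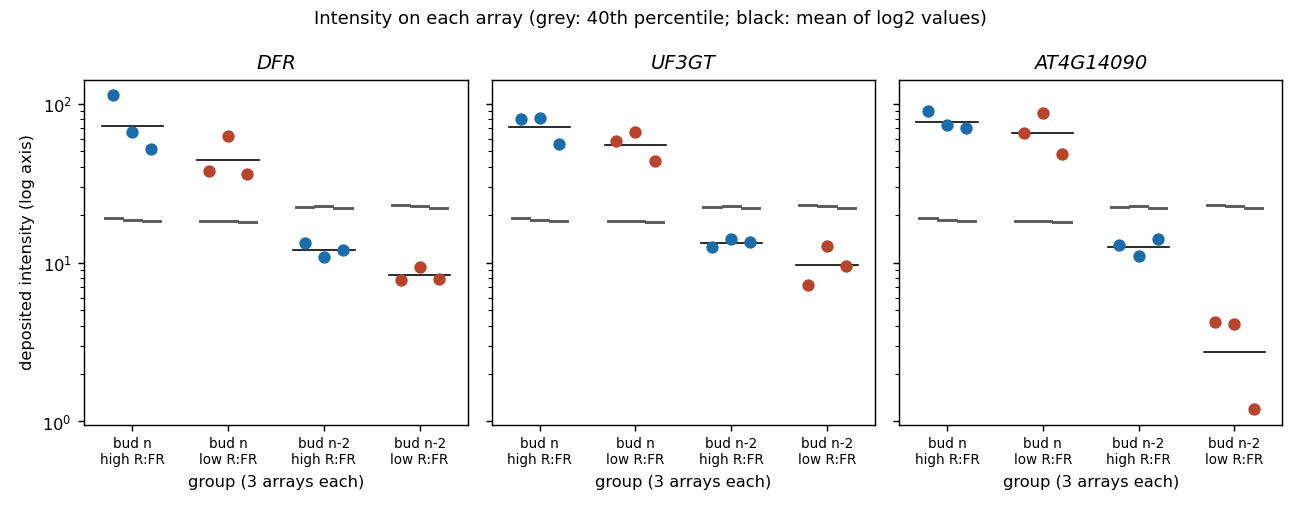
Deposited intensity (log axis) of DFR, UF3GT and AT4G14090 on each of the 12 arrays, by group, with replicates 1 to 3 from left to right, blue for high and red for low R:FR. Grey dashes mark each array's own 40th percentile and black lines the mean of the log2 values; all 6 bud n arrays lie above the dashes and all 6 bud n-2 arrays below them for each gene.

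Against the dim range the genes fell on opposite sides of the limit at the bud positions. In bud n they lay above it on all 6 arrays, DFR at 2.01 to 5.90 times the limit, UF3GT at 2.40 to 4.43 times and AT4G14090 at 2.66 to 4.79 times. In bud n-2 they lay below it on all 6 arrays, DFR at 0.339 to 0.596 times the limit, UF3GT at 0.316 to 0.623 times and AT4G14090 at 0.0545 to 0.636 times. Of the 14295 tested probe sets, 66 (0.462%) were above the limit on all 6 arrays of bud n and below it on all 6 of bud n-2, and 96 (0.672%) showed the opposite. All 3 anthocyanin genes are among the 66. This is a description only, since the genes and the limit were chosen with earlier results of these data known. The genes also passed the filter only through bud n.

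The place of each gene among all probe sets of its array does not depend on how arrays are scaled. DFR lay at the 48.9th to 73.2nd percentile in bud n and at the 26.0th to 34.1th in bud n-2. UF3GT lay at the 51.9th to 65.4th and at the 25.0th to 34.7th, and AT4G14090 at the 53.9th to 68.1th and at the 10.7th to 35.1th. Even in bud n the genes were thus in the middle of the array's range. A stricter limit at the 60th percentile would leave DFR above it on 2 arrays of 12, UF3GT on 3 and AT4G14090 on 5. With a looser limit at the 20th percentile, DFR and UF3GT would be above it on all 12 arrays and AT4G14090 on 9, with the 3 arrays of bud n-2 at low R:FR still below.

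**Figure D2:**
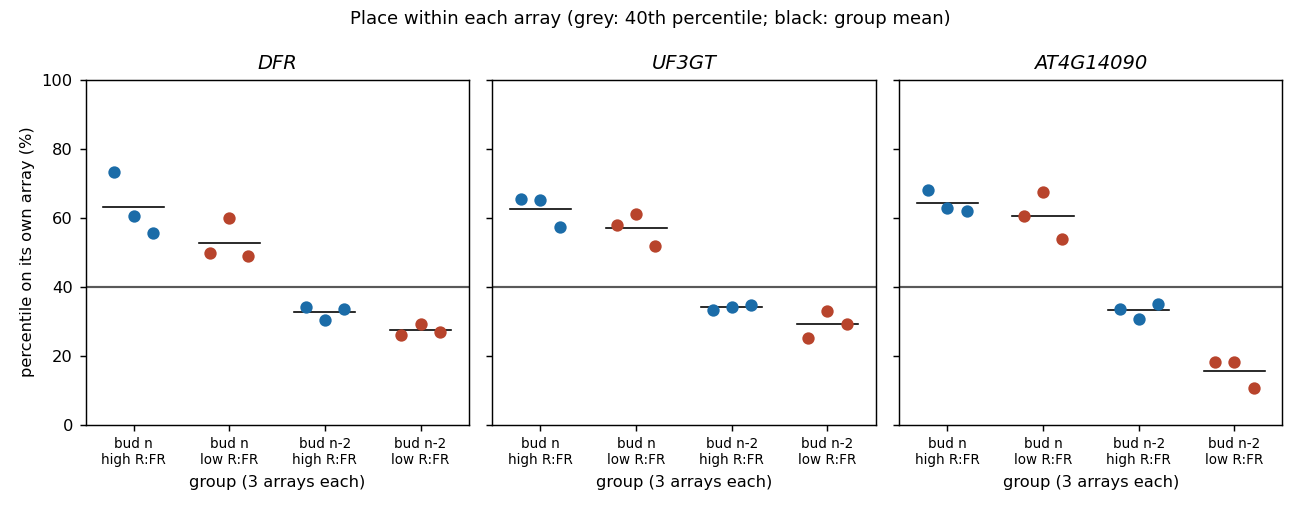
Percentile of DFR, UF3GT and AT4G14090 among the 22746 probe sets of the same array, by group, with replicates 1 to 3 from left to right, blue for high and red for low R:FR; black lines are means of 3 arrays. The grey line is the 40th percentile; AT4G14090 in bud n-2 at low R:FR is lowest, at 10.7 to 18.2.

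The first question is how the buds differ by position. At high R:FR all 3 genes were lower in bud n-2. Since all were dim there, each fold is given as a lower bound under the chosen limit. The mean log2 value of bud n was set against that of bud n-2 after raising dim values to their array's limit. Each bound still carries the spread of the bud n arrays. The limma p-values beside the bounds, here and below, come from the values as deposited and do not test the bounds. DFR was at least 3.25-fold lower, from a log2 intensity of 6.18 ± 0.58 (SD, n = 3 arrays) in bud n to 3.58 ± 0.15 in bud n-2 (limma, adjusted p = 1.5e-06). UF3GT was at least 3.21-fold lower, from 6.16 ± 0.31 to 3.74 ± 0.09 (limma, adjusted p = 5.7e-07). For AT4G14090 the signal was at least 3.45-fold lower, from 6.27 ± 0.19 to 3.65 ± 0.18 (limma, adjusted p = 4.0e-05). Lower calls made up 14.3% of tested probe sets in this comparison, so a call alone was common, and 18.9% did not overlap in that direction.

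The 3 genes were dim on every array of bud n-2, so they passed the filter only through bud n, where they were high, and their place among other probe sets is a description. At high R:FR, 106 tested probe sets were dim on all 3 arrays of bud n-2 and had a bound above 1, and AT4G14090, DFR and UF3GT ranked 2, 3 and 4 among them. Without replicate 1 of bud n at high R:FR, the array that stood apart and held the highest DFR and AT4G14090 signals, the bounds were 2.61-fold for DFR and 3.20-fold for AT4G14090, and the calls of all 3 genes remained.

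At low R:FR the same genes were again lower in bud n-2. DFR was at least 1.95-fold lower, from 5.46 ± 0.44 (SD, n = 3 arrays) to 3.06 ± 0.15 on the log2 scale (limma, adjusted p = 1.5e-06). UF3GT was at least 2.44-fold lower, from 5.79 ± 0.32 to 3.26 ± 0.41 (limma, adjusted p = 1.4e-07). For AT4G14090 the signal was at least 2.89-fold lower, from 6.03 ± 0.43 to 1.45 ± 1.03 (limma, adjusted p = 3.8e-08). Lower calls made up 23.3% of tested probe sets here, and 27.5% did not overlap in that direction. Among the 188 probe sets dim on all bud n-2 arrays of this light with a bound above 1, AT4G14090 ranked 10, UF3GT 17 and DFR 28. The bounds were smaller than at high R:FR; the difference of responses tests whether the position differences themselves differed between the lights.

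**Figure D3:**
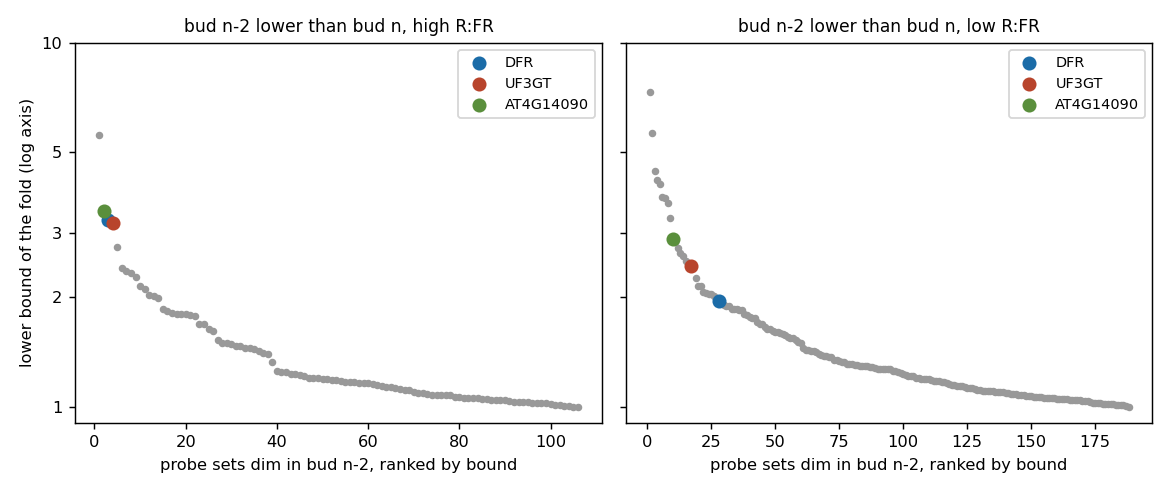
Lower bound of the fold by which bud n-2 was lower than bud n (log axis), for every tested probe set that was dim in bud n-2 with a bound above 1, ranked, at high R:FR (106 probe sets) and low R:FR (188). Coloured points are DFR, UF3GT and AT4G14090, which take ranks 2 to 4 at high R:FR and ranks 10 to 28 at low R:FR.

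Of the tissue markers, both tested shoot and bud markers were lower in bud n-2 at high R:FR, YAB3 with a log2 difference of -0.55 and PHV with -0.45 (limma, adjusted p = 0.00213 and 0.0193). At low R:FR YAB3 was lower (-0.45, adjusted p = 0.00541) and PHV did not pass (-0.12, adjusted p = 0.482). AMS was higher at low R:FR by 1.14 (adjusted p = 7.3e-05) and not at high R:FR (-0.03, adjusted p = 0.929). Their part in the position differences was not tested.

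The position differences were also fitted without the dim values as deposited. With every dim value raised to its array's limit in the fit itself, the log2 differences at high R:FR were -1.70 for DFR, -1.68 for UF3GT and -1.79 for AT4G14090 (limma, adjusted p = 3.6e-05, 1.2e-06 and 1.1e-06). At low R:FR they were -0.97, -1.29 and -1.53 (limma, adjusted p = 0.00244, 8.3e-06 and 2.3e-06). Raising replaces every bud n-2 value of these genes by its array's limit. With bud n above those limits the direction was fixed, and the spread in bud n-2 was that of the limits. These p-values thus do not measure the spread between replicates of bud n-2. Centring each array on its median moved the median log2 difference of all tested probe sets from 0.04 to -0.13 at high R:FR and from 0.05 to -0.15 at low R:FR, and gave bounds of 3.61-fold to 3.88-fold at high R:FR and 2.23-fold to 3.30-fold at low R:FR.

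The light comparison in bud n asked which transcripts of the top bud differ by R:FR, and none of the 3 genes passed. DFR had a log2 difference of -0.72 between low and high R:FR, with a 95% interval of -1.29 to -0.15, an unadjusted p of 0.0156 and an adjusted p of 0.714 in limma. UF3GT had a log2 difference of -0.38 (95% interval -0.86 to 0.11, limma adjusted p = 0.919). AT4G14090 had one of -0.24 (95% interval -1.02 to 0.54, limma adjusted p = 0.986). Calls were rare in this comparison, at 0.0839% of tested probe sets in either direction. The intervals still leave room for a fall of more than 1 on the log2 scale for DFR and AT4G14090, so the data do not show that light had no effect.

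The spread between replicates of bud n was wide. The coefficient of variation of DFR was 41.5% at high and 32.4% at low R:FR, against 19.8% and 21.0% for UF3GT and 13.7% and 29.7% for AT4G14090. Replicate 3 was the lowest array for all 3 genes in both bud n groups, and replicate 2 was the highest for all 3 at low R:FR. At high R:FR the highest was replicate 1 for DFR and AT4G14090 and replicate 2 for UF3GT. The 3 genes were read on the same arrays, so these shared deviations are 1 observation per array and not 3. Without replicate 1 of bud n at high R:FR the DFR difference was -0.41, and without replicate 2 at low R:FR it was -0.97; neither passed. The UF3GT difference was -0.20 without replicate 3 at low R:FR and -0.55 without replicate 3 at high R:FR. That of AT4G14090 was -0.13 without replicate 1 at high R:FR, and -0.46 and -0.02 without replicates 2 and 3 at low R:FR. None of these passed.

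In bud n-2 all 3 genes read lower at low R:FR than at high R:FR, but at values that were dim on all 6 arrays, so no fold is given. DFR had a log2 difference of -0.52 (95% interval -1.09 to 0.04, limma adjusted p = 0.246) and UF3GT one of -0.47 (95% interval -0.96 to 0.01, limma adjusted p = 0.216), which was -0.27 without replicate 1 at low R:FR. AT4G14090 passed the threshold with -2.20 (95% interval -2.98 to -1.41, limma adjusted p = 0.00153), where 5.49% of tested probe sets were called lower. It was 1 of 9 probe sets called lower although all 6 values were dim, which is 0.063% of all tested. Only probe sets that passed the filter through bud n alone could be among them. The number of such probe sets was not counted, so the share does not show how rare the call is. The log2 difference of AT4G14090 was -1.60 without replicate 3 at low R:FR, the array at 1.199, and the call remained.

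AT4G14090 in bud n-2 lay at the 30.6th to 35.1th percentile of its arrays at high R:FR and at the 10.7th to 18.2th at low R:FR. For DFR these ranges were 30.4 to 34.1 and 26.0 to 29.1, and for UF3GT 33.3 to 34.7 and 25.0 to 33.1. By percentile the light groups did not overlap for these genes, though for UF3GT by a narrow gap. The share of all tested probe sets without overlap by percentile was not counted. By intensity the light groups overlapped for UF3GT, and 13.9% of all tested probe sets were lower without overlap by intensity. The call of AT4G14090 was lost when 32 was added to each intensity before log2 (log2 -0.34, limma adjusted p = 0.0579) and when dim values were raised to the limit, where it became 0.01 (limma adjusted p = 0.973).

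The difference between the light responses of the buds did not pass for any of the 3. It was 0.20 on the log2 scale for DFR (95% interval -0.60 to 1.00, limma adjusted p = 0.853) and -0.10 for UF3GT (95% interval -0.78 to 0.59, limma adjusted p = 0.921). For AT4G14090 it was -1.95 (95% interval -3.06 to -0.85, limma adjusted p = 0.0813), and this value rests on the dim signals of bud n-2. It passed with quantile normalization (adjusted p = 0.0465) and without replicate 2 of bud n-2 at low R:FR (adjusted p = 0.0446), and was 0.26 with dim values raised. Of tested probe sets, 1.03% passed in this comparison.

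**Figure D4:**
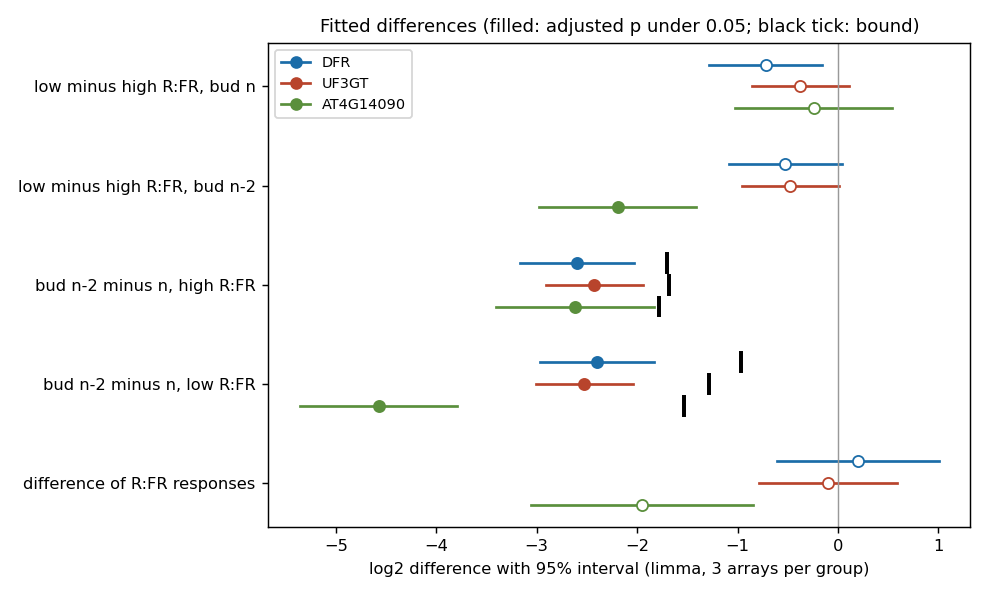
Fitted log2 differences of DFR, UF3GT and AT4G14090 in the 5 comparisons, with 95% intervals from limma; filled points have an adjusted p under 0.05 and black ticks mark the lower bound where bud n-2 was dim. All 6 position differences are filled and lie left of their ticks, and AT4G14090 in bud n-2 is the only filled light difference.

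The order of the 4 groups by mean log2 intensity was the same for each gene, with bud n at high R:FR first, then bud n at low R:FR, bud n-2 at high R:FR and bud n-2 at low R:FR. Bud n at high and at low R:FR, neighbours in that order, overlapped for each gene and did not pass. Bud n at low R:FR and bud n-2 at high R:FR did not overlap for any gene, as 19.3% of tested probe sets did not in that direction. The groups of bud n-2 were both dim.

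Of the other genes of the pathway, 57 were listed by function and 8 had a named probe set, of which 7 were tested. In bud n-2 against bud n at high R:FR, 3 of the 7 were lower, 1 was higher and 3 did not pass, with a median log2 difference of -0.40 against 0.04 over all tested probe sets, of which 14.3% were called lower and 20.2% higher. At low R:FR 4 were lower, none was higher and 3 did not pass (median -0.97 against 0.05), where 23.3% of all were called lower. Under low against high R:FR in bud n-2, 4 were lower and 3 did not pass (median -0.65 against 0.01), where 5.49% of all were called lower. Of these 4, AT5MAT was dim in both groups, and HYH was above the limit on only 1 of 3 arrays at low R:FR. In bud n none of the 7 passed (median -0.08 against 0.00), where 0.0839% of all did.

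AT5MAT, the late-acting enzyme that adds malonic acid to anthocyanins, also lay on opposite sides of the limit in the buds. Its intensity was 43.5 to 52.8 in bud n at high R:FR and 27.4 to 38.5 at low R:FR, and in bud n-2 it was 12.8 to 15.4 and 4.49 to 9.90. It was above the limit on all 6 bud n arrays and dim on all 6 of bud n-2, and at least 2.15-fold lower in bud n-2 at high R:FR and at least 1.44-fold lower at low R:FR (limma, adjusted p = 6.6e-05 and 5.3e-06). Low against high R:FR gave a log2 difference of -0.57 in bud n without overlap of arrays, as 5.74% of tested probe sets did in that direction (limma, adjusted p = 0.834), and passed in bud n-2 at values that were dim in both groups (adjusted p = 0.0438).

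The other late enzyme with a named probe set did not follow this pattern. UGT78D2, which adds the first glucose to anthocyanidins and also acts on flavonols, had intensities of 110 to 127 in bud n at high R:FR and 117 to 126 at low R:FR. In bud n-2 they were 101 to 156 and 111 to 129. The groups overlapped between positions, and the log2 differences of 0.10 at high R:FR (95% interval -0.17 to 0.37) and -0.04 at low R:FR (95% interval -0.31 to 0.23) did not pass (limma, adjusted p = 0.565 and 0.835). Among the early genes CHIL, a chalcone isomerase-like gene, was also close to level, with log2 differences of -0.05 and -0.16 (limma, adjusted p = 0.81 and 0.358).

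Both flavonol rhamnosyltransferases were lower in bud n-2 at signals well above the limit. UGT78D1, which works on the third position of flavonols, was at 513 to 570 in bud n at high R:FR and 262 to 312 in bud n-2, a log2 difference of -0.95 (SE 0.11, limma adjusted p = 3.5e-06). At low R:FR it was at 447 to 589 and 172 to 190, a log2 difference of -1.48 (limma adjusted p = 9.6e-09). AT1G06000 (UGT89C1, which works on the seventh position) was lower by log2 differences of -0.90 and -1.52 (limma adjusted p = 7.3e-05 and 1.1e-07). In bud n-2 both were also lower at low than at high R:FR, UGT78D1 with -0.67 (SE 0.11, limma adjusted p = 0.000897) and AT1G06000 with -0.78 (SE 0.14, limma adjusted p = 0.00184). In bud n their light differences of -0.14 and -0.16 did not pass.

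Few regulators could be followed. HYH, a bZIP factor of light signalling that promotes anthocyanin genes, was at 26.0 to 41.5 in bud n-2 at high R:FR and at 17.7 to 23.5 at low R:FR, where 2 of 3 arrays were dim (log2 -0.65, limma adjusted p = 0.0309). Between positions it was lower at low R:FR (log2 -0.97, limma adjusted p = 0.000271) and did not pass at high R:FR (log2 -0.40, limma adjusted p = 0.099). TRY, a small MYB repressor best known from leaf hairs, was higher in bud n-2 at high R:FR on the deposited scaling (log2 0.34, limma adjusted p = 0.0375) and did not pass at low R:FR (log2 0.23, limma adjusted p = 0.118). BAN, which diverts anthocyanidins to seed coat tannins, was dim on all 12 arrays, at 0.344 to 2.26, and was not tested. The MYB and bHLH activators, chalcone synthase and anthocyanidin synthase were not analysed here by name.

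**Figure D5:**
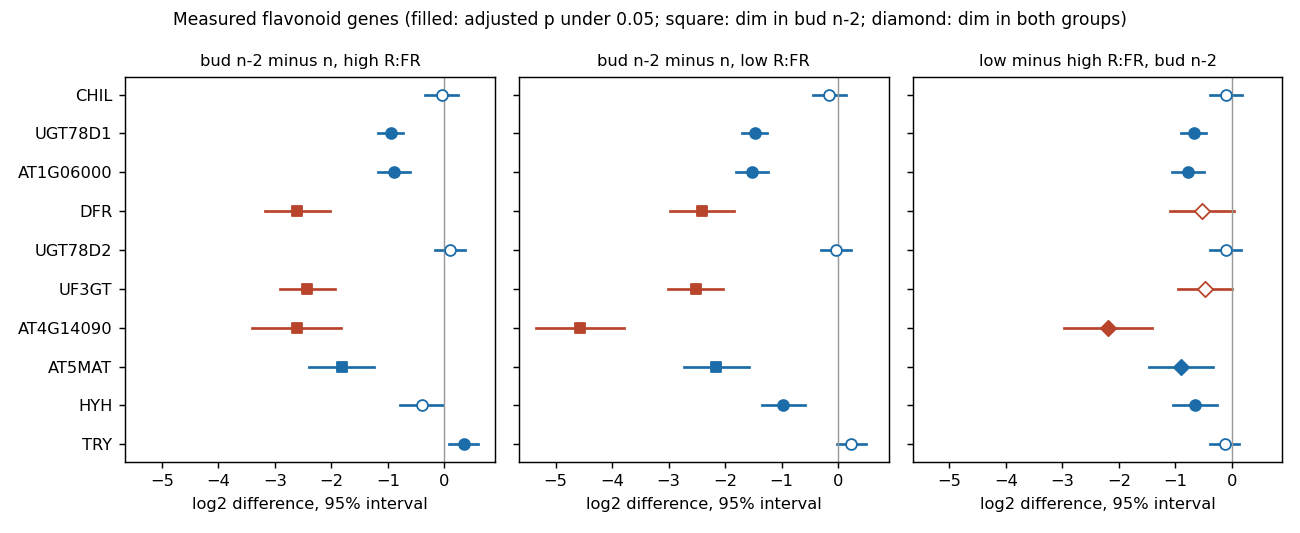
Log2 differences with 95% intervals (limma, 3 arrays per group) of the 10 tested flavonoid genes, in red DFR, UF3GT and AT4G14090, for the position comparison at high and low R:FR and the light comparison in bud n-2. Filled points have an adjusted p under 0.05; squares were dim in bud n-2, diamonds dim in both groups, so their fitted sizes are not read as folds.

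UF3GT and AT4G14090 belong to the large UGT family of glycosyltransferases, so 20 other tested genes that the reference table gives a UGT name, as symbol or synonym, were set beside them; this set was chosen after the annotation and the values of the 3 genes had been seen. It leaves out AT1G06000, which has no such name in that table and was lower in both position comparisons. On the deposited scaling, of the 20, 6 were higher and 3 lower in bud n-2 at high R:FR, with a median log2 difference of 0.16, and 7 were higher and 6 lower at low R:FR, with a median of 0.09. Over all tested probe sets 20.2% and 28.4% were called higher, and 14.3% and 23.3% lower. The 20 include UGT78D1 and UGT78D2, given above, of which UGT78D1 was lower under both lights. UGT74B1, which acts in glucosinolate synthesis, was lower with log2 differences of -0.89 and -1.57 (limma, adjusted p = 3.2e-05 and 2.7e-08). Of the 20 only UGT71C3 was dim in bud n-2 in these comparisons, with bounds of 1.03-fold and 1.07-fold.

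Profiles over the 12 arrays were compared by the root-mean-square difference between log2(intensity + 32) values, each profile centred on its own mean, for 7791 single-gene probe sets of other genes. UF3GT differed from DFR by 0.165, less than any of the 7791 did, where the median was 0.635. Of the 7791, AT1G72250, AT1G04680, AT1G55210 and VPS2.2 were closest to DFR, at 0.211 to 0.236. AT1G72250, AT5G15510, AT5G66230 and AT5G17160 were closest to UF3GT, at 0.131 to 0.154, with DFR ranked after 6 of them. AT4G15830, AT5G16250, the mitotic kinase gene AUR1 and AT2G42110 were closest to AT4G14090, at 0.153 to 0.177, with UF3GT ranked next.

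These neighbours stayed above the limit of their array on all 12 arrays, among them AT1G72250, whose intensity was 129 to 162 in the upper bud against 44.6 to 56.6 lower down. The likeness depends on the added 32, which damps the dim values. With no offset none of the 4 closest genes was the same for any of the 3. UF3GT was then still closer to DFR than any of the 7791, at 0.280, and DFR was closer to UF3GT than any of them. AT5MAT was second closest to DFR among the 7791, at 0.444. Distances without the offset rest on the dim values, and the median over candidates for AT4G14090 went from 0.745 to 2.05. AT4G14090 was then at 0.935 from DFR and 0.956 from UF3GT, where each ranked 6 against the 7791, while with the offset DFR ranked 23 and UF3GT 5. JAL23 and AT4G17470 were its closest genes.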

How the data were processed

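Titles and source names gave each of the 12 arrays its group. The deposited values are linear intensity, made by the authors with MAS5 and GCOS per the submitters' processing notes (version not given in the sources used here). The method scales each array by a single factor, and the 2% trimmed mean of the deposited values was 100 on every array, so the shapes of the distributions were left to differ between bud positions. Scanner files were not used here.

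Of 22810 probe sets, 64 controls were left out. Intensities were log2-transformed with no offset, and probe sets above their array's 40th percentile on at least 3 arrays were kept (14295). One limma model (version 3.58.1, R 4.3.3) held the 4 group means over all 12 arrays (eBayes with trend, 8 residual degrees of freedom), with Benjamini-Hochberg adjustment over all tested probe sets and a threshold of 0.05. Gene names came from the platform annotation, updated by locus through the RefSeq table of TAIR10.1; 503 had several genes, and 8794 were unlisted and are unnamed here. No coordinates are given, because no build is named for the deposited values.

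The genes, the lists and the 40th percentile as dim limit were chosen with earlier results of these data known. Named genes are the 3 genes, every listed pathway gene with a single-gene probe set and the 4 genes closest in profile to each; UGT74B1, UGT71C3, JAL23 and AT4G17470 were chosen after their values were seen. The code was tested on simulated data. Alternatives were quantile normalization, median centring, an offset of 32, dim values raised, other filters, no trend, array weights, a replicate block, the compared arrays alone, other dim limits and each array left out. Bounds under left-out arrays and other scalings were added after the data were seen.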

Additional observations from a re-analysis of the deposited data

How the results depend on the processing

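The lower level of DFR, UF3GT and AT4G14090 in bud n-2 kept its direction and its call under every alternative that gave a value, under both lights. Their log2 differences ranged from -2.84 to -1.20 at high R:FR and from -5.03 to -0.92 at low R:FR, smallest with 32 added before log2 (left-out arrays aside). DFR could not be tested with the filter at the 60th percentile, which it does not pass. Without single arrays the bounds ranged from 2.61 to 3.86 at high R:FR and from 1.64 to 3.36 at low R:FR, and the bound of AT4G14090 at high R:FR was 3.95 with quantile normalization. The number of arrays above the dim limit, 6 of 12 for each gene, became 12 for DFR and UF3GT at the 20th percentile, and 2 and 3 at the 60th. The 60th percentile averaged 70.5 in bud n-2 at low R:FR. Mean intensities of bud n at low R:FR were below that, at 45.5 (DFR), 56.0 (UF3GT) and 67.2 (AT4G14090), so no bound would remain there. At high R:FR the 60th percentile averaged 69.3 in bud n-2. Mean intensities of bud n at high R:FR were 76.8 (DFR), 72.7 (UF3GT) and 77.5 (AT4G14090), so little of those bounds would remain.

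In bud n-2 the light differences of DFR, UF3GT and AT4G14090 all became 0.0148 with dim values raised, since all values then equal the limits, and that of AT4G14090 was -0.34 and did not pass with 32 added. The difference of responses of AT4G14090 was -2.19 with quantile normalization and 0.26 with dim values raised, and -2.26 to -1.36 without single arrays. That of UF3GT, not passed under any of these, was 0.13 with 32 added and 0.39 with dim values raised, and -0.30 to 0.10 without single arrays, and that of DFR was -0.12 to 0.45 without single arrays, below 0 without replicate 1 of bud n at high R:FR.

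Over all probe sets, 12 were called for light in bud n, 24 with array weights. The 1405 in bud n-2 became 646 to 1632 without single arrays, 646 and 773 of them when replicates 3 and 1 at low R:FR in bud n-2 were left out. The 147 of the difference of responses became 231 with quantile normalization, 230 with 32 added, 90 with no filter, 444 with array weights, and 2 to 264 without single arrays: 264, 19 and 2 without replicates 1, 2 and 3 of bud n at high R:FR, 18, 16 and 4 without those of bud n at low R:FR, 82 without replicate 2 of bud n-2 at high R:FR, and 8 when either replicate 1 or 3 at low R:FR in bud n-2 was left out. It was 0 in limma without trend, with 2038 at an unadjusted p under 0.05. Median centring moved the share of position calls that were lower from 41.4% to 69.9% at high R:FR and from 45.1% to 66.7% at low R:FR.

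Deviations of same-numbered replicates of different groups had correlations of -0.143 to 0.0755, and 1 array of 12 correlated best with its own number. No pairing by number was thus visible in the signals. Whether same-numbered samples shared plants or a planting cannot be told from this. With the replicate block the fitted differences stay as they are, and the calls were 13 for light in bud n, 1274 for light in bud n-2, 4792 and 7212 for position at high and low R:FR, and 105 for the difference of responses. No call of DFR, UF3GT or AT4G14090 changed with it (AT4G14090 for light in bud n-2: -2.20). The cause of these changes was not tested where no construction above gives it.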
